A study of Mus musculus with 15 samples.

Results

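Messenger RNA of 40 genes of DNA replication and of the step from G1 into S phase was measured in the distal jejunum of wild-type (WT) mice and of mice without Aster-B and Aster-C. The 40 genes are a list of names, and all 40 were among the 26844 genes of the table. They code for the MCM helicase (Mcm2, Mcm3, Mcm4, Mcm5, Mcm6, Mcm7), origin licensing (Orc1, Orc6, Cdc6, Cdt1), helicase activation (Cdc45, Gins1, Gins2, Gins3, Gins4, Mcm10), polymerases and primase (Pola1, Pola2, Prim1, Prim2, Pold1, Pole), the sliding clamp, its loader and single-strand binding (Pcna, Rfc3, Rfc4, Rfc5, Rpa2), lagging-strand joining (Fen1, Lig1), nucleotide supply (Rrm1, Rrm2, Tyms, Tk1), G1/S regulation (Ccne1, Ccne2, E2f1, E2f2) and chromatin behind the fork (Chaf1a, Chaf1b, Uhrf1). All mice were C57BL/6 males aged 13 to 15 weeks and ate a diet with 0.08% cholesterol, either alone (control) or with 0.01% ezetimibe, which blocks the cholesterol importer NPC1L1. The knockout (KO) is global: both Aster genes, Gramd1b (Aster-B) and Gramd1c (Aster-C), are deleted in the whole body. Their proteins are lipid transporters that move cholesterol out of the plasma membrane. The deletion is not limited to the gut, so a difference in the jejunum need not arise in its epithelium. There were 4 WT control, 3 KO control, 4 WT ezetimibe and 4 KO ezetimibe libraries, each from bulk tissue.

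A cell copies its DNA once per cycle. In G1, ORC, Cdc6 and Cdt1 load the MCM helicase onto origins. Cyclin E kinase and E2F transcription factors then carry the cell into S phase, where the helicase is activated with Cdc45 and GINS, primase and DNA polymerase alpha start each strand, and polymerases delta and epsilon extend it on the PCNA clamp. In the small intestine most of these cells are stem and transit-amplifying cells of the crypts, while the villus epithelium has left the cycle.

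Whole reads recovered from the deposited values gave a depth of 13855034 to 19307079 per library. Gramd1c was at 1059 to 1845 normalised counts in WT control and 115 to 194 in KO control, and at 1102 to 1394 and 71.8 to 156 in WT and KO with ezetimibe. Gramd1b was at 2274 to 4046 in WT and 962 to 1247 in KO control (−1.44 ± 0.175, SE, limma adjusted p = 0.0022). With ezetimibe Gramd1b was at 2859 to 3697 in WT and 1744 to 2086 in KO, without overlap but short of the limma threshold (−0.82 ± 0.162, SE, adjusted p = 0.171). The sources used here do not give the deleted exons. Abca1, a cholesterol efflux gene, was at 1446 to 2299 in WT control and 128 to 213 in WT ezetimibe, so diet labels and values went together. All 14 mature enterocyte markers were detected in every library. The labels do not say that each library is a separate animal, and p-values then measure only the spread between these samples.

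A group of libraries stood apart for these genes. Of the 39 members tested, WT control replicate 4 was the highest WT control library for 32, against 30.5% of all genes tested. KO control replicate 2 was the highest of its group for 35 members (37.8% of all genes), and WT ezetimibe replicate 2 for 31 (26.1% of all genes). KO ezetimibe replicate 4 was the lowest of its group for 24 (24.9% of all genes). The mean log2(value + 1) over the members was 6.13, 6.79, 6.45 and 7.14 in WT control replicates 1 to 4 and 5.74, 6.45 and 5.76 in KO control replicates 1 to 3. With ezetimibe it was 6.31, 6.82, 6.18 and 6.54 in WT and 6.18, 6.16, 5.85 and 5.80 in KO. The SD around the group means on the log2 scale had a median of 0.403 over the members and 0.258 over all genes tested, and ran from 0.168 for Gins4 to 1.00 for Orc1.

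The members were often high or low in the same libraries, and their promoters were read for the letters that E2F factors are known to bind. RefSeq promoter windows on GRCm38.p6, 250 bases before to 50 after each annotated start, were matched by symbol for 33 of the 40 members; Mcm4, Gins1, Gins2, Gins4, Prim2, Pole and Ccne2 had none. The letters searched on both strands were TTTCCCGC, TTTCGCGC, TTTGCCGC and TTTGGCGC. At least 1 of them lay in a window of 14 of 33 members (42.4%), against 704 of 27025 genes with a window (2.6%). For 86 other genes of replication and G1/S the share was 18 of 69 (26.1%), for 20 mitosis genes 1 of 17 (5.88%) and for the mature enterocyte markers 0 of 14. CCAAT, on either strand, was in 60.6% of the members and 41.1% of all genes. It was in 76.5% of the mitosis genes, 49.3% of the other replication and G1/S genes and 21.4% of the mature enterocyte markers. A match is a run of letters and not a measured site. Shown here are the 250 bases before the start, 5′ to 3′ on the gene's strand, for Mcm6, which has the most matches of the members, for Mcm5 and Pola1, which also have them, and for Prim1 and Pcna, which have none. Capitals mark the E2F letters. The windows are chr1:128359706-128359955 (minus strand), chr8:75109259-75109508 (plus), chrX:93632156-93632405 (minus), chr10:128014965-128015214 (plus) and chr2:132253181-132253430 (minus). For Prim1 and Pcna the RefSeq start lies inside the GENCODE gene bounds given with the values.
Mcm6: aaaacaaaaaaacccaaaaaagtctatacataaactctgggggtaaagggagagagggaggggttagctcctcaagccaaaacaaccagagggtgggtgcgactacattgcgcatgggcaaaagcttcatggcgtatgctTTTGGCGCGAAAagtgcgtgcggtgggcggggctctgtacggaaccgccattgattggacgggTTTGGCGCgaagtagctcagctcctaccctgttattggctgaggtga
Mcm5: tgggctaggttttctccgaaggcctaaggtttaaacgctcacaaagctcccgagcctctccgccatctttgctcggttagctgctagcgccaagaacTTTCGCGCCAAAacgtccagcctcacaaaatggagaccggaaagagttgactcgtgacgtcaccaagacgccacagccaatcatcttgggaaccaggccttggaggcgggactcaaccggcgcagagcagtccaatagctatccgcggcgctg
Pola1: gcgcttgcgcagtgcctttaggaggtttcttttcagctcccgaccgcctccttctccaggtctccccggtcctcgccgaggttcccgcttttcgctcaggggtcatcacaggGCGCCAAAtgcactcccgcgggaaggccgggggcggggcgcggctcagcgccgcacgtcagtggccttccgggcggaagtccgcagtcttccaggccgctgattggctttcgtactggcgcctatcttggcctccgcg
Prim1: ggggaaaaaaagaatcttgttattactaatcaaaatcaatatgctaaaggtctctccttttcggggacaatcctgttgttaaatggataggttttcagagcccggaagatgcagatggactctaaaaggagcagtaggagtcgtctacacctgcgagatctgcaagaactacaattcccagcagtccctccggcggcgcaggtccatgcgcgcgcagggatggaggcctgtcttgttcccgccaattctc
Pcna: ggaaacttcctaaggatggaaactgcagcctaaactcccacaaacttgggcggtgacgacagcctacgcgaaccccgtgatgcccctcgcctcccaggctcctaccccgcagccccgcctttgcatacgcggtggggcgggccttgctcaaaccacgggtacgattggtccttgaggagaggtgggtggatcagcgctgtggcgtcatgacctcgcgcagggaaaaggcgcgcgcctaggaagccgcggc
Mcm6 has 3 matches, of which a pair overlaps, and the nearest lies 40 bases from the start. Mcm5 has 2 that overlap, and Pola1 has 1. The 14 members with a match had a median log2 fold change in KO of −0.63 on the control diet and −0.48 with ezetimibe. The 18 tested members with a window and no match had −0.64 and −0.55. No match means only that the listed letters were absent, and other forms of an E2F site were not searched. The Prim1 window, for example, holds TTCCCGCC, which differs from a listed run by a shift of 1 base. The 2 sets are therefore not genes with and without E2F sites, and no conclusion is drawn from their medians. E2f1 is counted among the members with no match. The 250 bases before its RefSeq start (chr2:154569427-154569676, minus strand) lie wholly inside its GENCODE gene bounds (154559407 to 154569892). Bases upstream of those bounds were therefore not searched for E2f1.

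The first comparison asked how the members differed between KO and WT on the control diet. Most replication genes had lower estimates in KO, though none passed the test: 37 of 39 tested members had a negative log2 fold change, with a median of −0.60, against −0.01 over all 14299 genes tested, of which 50.9% were negative. The lowest were Pole (−1.41), Pola1 (−1.34), Gins2 (−1.29), Rrm2 (−1.18) and Mcm5 (−1.18), and the positive ones were Pola2 (0.07) and Pcna (0.06). None of the 39 passed the limma test (adjusted p under 0.05), which 0.371% of all genes did; the smallest adjusted p was 0.0806, for Prim1. At an unadjusted p under 0.05 there were 18 members lower and 0 higher, against 7.86% of all genes lower and 6.87% higher. For 7 members (Cdt1, Prim1, Prim2, Pole, Tk1, E2f1 and Chaf1a) every KO library lay below every WT library, against 5.57% of all genes. None lay wholly above, against 6.59%.

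The call depended on the tool. DESeq2 on the recovered reads called 5 members lower in KO (Mcm6, Pola1, Prim1, Pole and Rrm1). Of all genes it called 3.58% in either direction and 1.94% lower. EdgeR and voom called 0 members. Of 424 genes in the authors' deposited table for the control diet, 4 are members: Prim1 at a log2 fold change of −1.17 (adjusted p = 0.0106), Pole at −1.52 (adjusted p = 0.0114), Pola1 at −1.51 (adjusted p = 0.0245) and Mcm6 at −0.60 (adjusted p = 0.0449). The median over the members was −0.38 without WT control replicate 4 and −0.88 without KO control replicate 2, the libraries where most members were highest. Without WT control replicate 1 limma called 2 members, Pola1 and Prim1, among 126 of all 14299 genes. Without KO control replicate 2 limma called 1 member, Mcm5, among 41 of 14299 genes. With all libraries it called 53 genes. In bulk tissue, fewer cycling cells and less RNA per cell cannot be told apart.

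With ezetimibe in both genotypes, 35 of 39 members had a negative log2 fold change in KO, with a median of −0.47 against −0.0018 over all genes, of which 50.3% were negative. Tyms (−1.17), Ccne1 (−1.08) and Uhrf1 (−1.02) were lowest. Ccne2 was the exception at 1.02, and Pola2 (0.15), Mcm10 (0.07) and Gins4 (0.06) were also positive. Limma called 0 of 39 members, against 0.00699% of all genes, which is 1 gene, the deleted Gramd1c (limma adjusted p = 2.3e-06). At an unadjusted p under 0.05 there were 11 members lower and 1 higher, against 8.3% and 8.15% of all genes. Every KO library lay below every WT library for 6 members (Mcm5, Mcm6, Orc6, Prim1, Tyms and Uhrf1; 4.84% of all genes) and above for Ccne2 (5.09%). DESeq2 called Ccne2 higher and no other member, with 0.694% of all genes called and 0.453% called higher. The median was −0.38 without WT ezetimibe replicate 2. Between the diets, no member's KO effect differed by limma (interaction, 0 of 39 members and 0% of all genes; 1 member, Ccne2, at an unadjusted p under 0.05, against 7.02%).

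**Figure D1:**
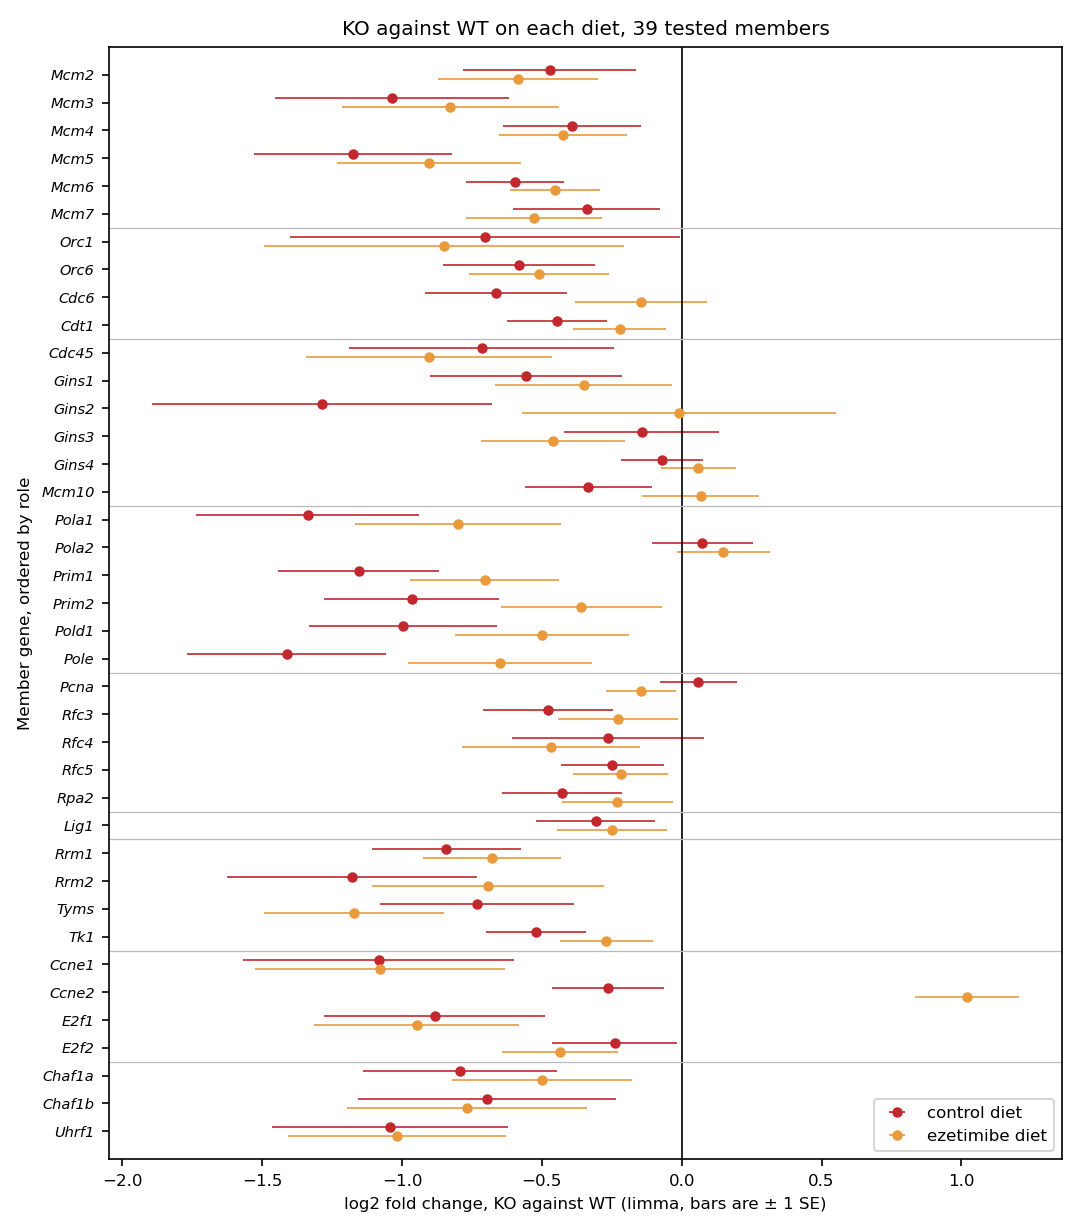
Log2 fold change of KO against WT on the horizontal axis for each of the 39 tested members, on the control diet (red) and with ezetimibe (orange); points are limma estimates and bars ± 1 SE. Of the points, 37 on the control diet and 35 with ezetimibe lie left of 0, and Ccne2 with ezetimibe lies farthest right, at 1.02.

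Among the MCM helicase genes, all 6 had negative values on both diets, with medians of −0.53 and −0.56, and none passed limma. Mcm6 (mm10 chromosome 1, 128331590 to 128359664), a helicase subunit, had 387, 528, 345 and 527 normalised counts in WT control and 299, 353 and 231 in KO control. With ezetimibe Mcm6 had 389.7, 449, 323 and 367 in WT and 285, 296, 294 and 236 in KO. On the control diet only KO replicate 2 reached into the WT range, and with ezetimibe the groups did not overlap. KO differed from WT in Mcm6 by −0.60 ± 0.175 (log2, SE; limma adjusted p = 0.125) without ezetimibe and by −0.45 ± 0.162 (limma adjusted p = 0.244) with it. Mcm7, another subunit, had 124, 232, 159.7 and 291 in WT control and 144, 191 and 125 in KO control. With ezetimibe Mcm7 had 183, 233, 145 and 204 in WT and 139, 161, 134 and 95.9 in KO. The groups overlapped on both diets, at log2 fold changes of −0.34 and −0.53 (limma adjusted p = 0.593 and 0.296). Mcm5 ranged over 117 to 152 in WT ezetimibe and 57.2 to 91.1 in KO ezetimibe without overlap (−0.90 ± 0.329, SE, limma adjusted p = 0.244). Without ezetimibe Mcm5 was at 92.6, 173, 132 and 237 in WT and 43.8, 138 and 46.6 in KO, where KO replicate 2 stood above the other KO libraries. Mcm2, Mcm3 and Mcm4 had log2 fold changes of −0.47, −1.04 and −0.39 on the control diet and −0.59, −0.83 and −0.42 with ezetimibe.

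The 4 origin licensing genes were all negative on both diets (medians −0.62 and −0.37), with 0 called. Cdc6, which loads the helicase with Cdt1, had 66.8, 76.3, 56.7 and 88.6 normalised counts in WT control and 34.9, 70.6 and 35.7 in KO control. With ezetimibe Cdc6 had 65.5, 65.7, 43.4 and 51.1 in WT and 57.8, 57.9, 43.2 and 43.7 in KO. KO control replicates 1 and 3 lay below every WT control library and replicate 2 lay among them; the log2 fold change was −0.66 ± 0.253 (SE, limma adjusted p = 0.229), and −0.15 with ezetimibe, where the groups overlapped. Cdt1 was at 118 to 180.3 in WT control and 94.2 to 115 in KO control without overlap (−0.45 ± 0.179, SE, limma adjusted p = 0.257), and overlapped with ezetimibe (−0.22). Orc6, a subunit of the origin recognition complex, was at 70.7 to 118 in WT ezetimibe and 50.2 to 69.2 in KO ezetimibe, again without overlap (−0.51 ± 0.251, SE, limma adjusted p = 0.317). Without ezetimibe it overlapped, at −0.58. Orc1, the largest subunit of that complex, was scarce, with 4.77, 20.9, 11.3 and 17.3 in WT control and 5.68, 10.9 and 5.42 in KO control. With ezetimibe Orc1 had 8.45, 15.0, 3.77 and 5.57 in WT and 8.57, 5.36, 0 and 6.39 in KO. The groups overlapped and the standard errors were wide (−0.70 ± 0.696 and −0.85 ± 0.644). The 0 in KO ezetimibe replicate 3 allows up to 3 reads, or 3.50 normalised counts, for counting error alone.

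Helicase activation genes showed a mixed picture. All 6 were negative on the control diet (median −0.45) and 4 of 6 with ezetimibe (median −0.18), and 0 had an unadjusted p under 0.05 on either diet. Gins2, a GINS subunit, had 11.5, 34.5, 14.4 and 40.8 normalised counts in WT control and 2.43, 19.9 and 10.8 in KO control. With ezetimibe Gins2 had 12.7, 26.3, 5.66 and 17.6 in WT and 18.2, 9.65, 10.5 and 18.1 in KO. KO control replicate 1 stood lowest and the groups overlapped on both diets, at −1.29 ± 0.606 (SE, limma adjusted p = 0.339) and −0.01. Of the exon bases of Gins2, 67.3% lie under Gse1 on the opposite strand, and whether counting used strand is not stated. Gins4, another GINS subunit, was the least variable member, with 134, 143, 124 and 111 in WT control and 104, 135 and 127 in KO control. With ezetimibe Gins4 had 119, 141, 129 and 116 in WT and 149.9, 128, 109.8 and 142 in KO. No group stood apart, at −0.07 ± 0.146 (SE) on the control diet and 0.06 ± 0.135 (SE) with ezetimibe. Cdc45, Gins1, Gins3 and Mcm10, a firing factor, were at −0.71, −0.56, −0.14 and −0.33 on the control diet and −0.90, −0.35, −0.46 and 0.07 with ezetimibe.

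The polymerase and primase genes had the lowest median of the 9 roles on the control diet, −1.08, and −0.57 with ezetimibe; 5 of 6 were negative on each diet. Prim1 (mm10 chromosome 10, 128015168 to 128030037), the catalytic primase subunit, had 60.2, 109.9, 89.6 and 126 normalised counts in WT control and 30.8, 59.7 and 37.9 in KO control. With ezetimibe Prim1 had 65.5, 93.0, 56.6 and 66.8 in WT and 51.4, 54.7, 35.0 and 32.0 in KO. All KO libraries lay below all WT libraries of their diet, by a small margin: 59.7 against 60.2 on the control diet. The log2 fold changes were −1.16 ± 0.288 (SE, limma adjusted p = 0.0806) without ezetimibe and −0.70 ± 0.266 (limma adjusted p = 0.254) with it. Pole (mm10 chromosome 5, 110286306 to 110337474), the catalytic subunit of the leading-strand polymerase epsilon, had 28.6, 57.2, 37.1 and 65.2 in WT control and 16.2, 19.9 and 13.0 in KO control. With ezetimibe Pole had 42.2, 61.0, 19.8 and 42.7 in WT and 26.8, 24.7, 30.4 and 17.0 in KO. The control groups did not overlap (−1.41 ± 0.356, SE, limma adjusted p = 0.0852), and the ezetimibe groups overlapped through WT replicate 3 (−0.65 ± 0.33, SE, limma adjusted p = 0.324).

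Pola1 (mm10 chromosome X, 93304767 to 93632155), the catalytic subunit of polymerase alpha, had 22.0, 51.8, 45.3 and 95.8 in WT control and 12.2, 26.2 and 18.4 in KO control. With ezetimibe Pola1 had 34.8, 60.1, 37.7 and 49.2 in WT and 37.5, 24.7, 22.2 and 19.2 in KO. It overlapped on the control diet through KO replicate 2 and WT replicate 1 and with ezetimibe through KO replicate 1, at −1.34 ± 0.398 (SE, limma adjusted p = 0.129) and −0.80 ± 0.368 (SE, limma adjusted p = 0.296). Pola2, the accessory subunit of the same polymerase, had small positive estimates, with 179.5, 156, 179 and 149.8 in WT control and 145, 163 and 224 in KO control. With ezetimibe Pola2 had 189, 154, 185 and 139 in WT and 241, 185, 173 and 147 in KO. The groups overlapped widely, at 0.07 ± 0.181 and 0.15 ± 0.167 (SE). Prim2, the regulatory primase subunit, was at 24.7 to 60.1 in WT control and 13.0 to 22.7 in KO control without overlap (−0.97 ± 0.312, SE, limma adjusted p = 0.16), and at −0.36 with ezetimibe. Pold1, the catalytic subunit of polymerase delta, was at −1.0 and −0.50, with overlap on both diets.

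The clamp and clamp loader genes were nearer to 0, with medians of −0.26 and −0.23 and none at an unadjusted p under 0.05. Pcna (mm10 chromosome 2, 132249162 to 132253314), the sliding clamp, had 932, 1193, 983 and 1169.7 normalised counts in WT control and 976, 1321 and 1056 in KO control. With ezetimibe Pcna had 1007, 1118, 909 and 1155 in WT and 1036, 987, 768 and 1006 in KO. The highest library of all was KO control replicate 2, and the groups overlapped on both diets (0.06 ± 0.137 and −0.15 ± 0.126, SE). Rfc3, a clamp loader subunit, had 85.9, 107, 70.1 and 139 in WT control and 50.3, 90.5 and 73.7 in KO control. With ezetimibe Rfc3 had 76.0, 108, 84.9 and 98.4 in WT and 88.9, 77.2, 77.1 and 68.2 in KO. Its groups overlapped, at −0.48 ± 0.232 (SE, limma adjusted p = 0.351) and −0.23. Rfc4, Rfc5 and Rpa2, a subunit of the single-strand binding complex, were at −0.26, −0.25 and −0.43 on the control diet and −0.47, −0.22 and −0.23 with ezetimibe.

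Lig1, the ligase that seals lagging-strand fragments, had 125, 216, 186 and 220.1 normalised counts in WT control and 155, 179 and 115 in KO control. With ezetimibe Lig1 had 174, 275, 172 and 187 in WT and 172, 183, 162 and 149 in KO. The groups overlapped (−0.31 ± 0.212 and −0.25 ± 0.196, SE). Fen1, the flap endonuclease of the same step, was the 1 member left out of the tests, since it did not reach 10 normalised counts in 3 libraries. It was at 2.86 to 10.2 in WT control, 1.62 to 8.14 in KO control, 2.83 to 10.2 in WT ezetimibe and 0 to 4.67 in KO ezetimibe, where 0 in replicate 4 allows up to 3 reads, or 3.20 normalised counts. Of its exon bases, 84.2% lie under models on the opposite strand (Gm10143 and Tmem258).

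Nucleotide supply genes were negative throughout, 4 of 4 on each diet, with medians of −0.79 and −0.69 and 0 called by limma. Rrm1 (mm10 chromosome 7, 102441695 to 102469771), the large subunit of ribonucleotide reductase, had 165, 268, 252 and 399 normalised counts in WT control and 118, 199 and 127 in KO control. With ezetimibe Rrm1 had 219.6, 248, 184 and 266 in WT and 144, 198, 128 and 109.7 in KO. A single KO library on each diet, replicate 2, reached the WT range, and the log2 fold changes were −0.84 ± 0.266 (SE, limma adjusted p = 0.154) and −0.68 ± 0.246 (SE, limma adjusted p = 0.244). Tyms, thymidylate synthase, had 71.6, 112, 74.2 and 176 in WT control and 36.5, 105 and 57.4 in KO control. With ezetimibe Tyms had 82.4, 124, 67.9 and 101 in WT and 48.2, 46.1, 35.0 and 33.0 in KO. The groups overlapped on the control diet (−0.73 ± 0.347, SE, limma adjusted p = 0.341) and were separate with ezetimibe (−1.17 ± 0.322, SE, limma adjusted p = 0.223). Tk1, thymidine kinase, was at 125 to 215 in WT control and 97.4 to 117 in KO control without overlap (−0.52 ± 0.179, SE, limma adjusted p = 0.18), and at −0.27 with ezetimibe. Rrm2, the small reductase subunit, was at −1.18 ± 0.447 and −0.69 ± 0.414 (SE), with overlap on both diets.

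In the chromatin group all 3 genes were negative on both diets, with medians of −0.79 and −0.77. Uhrf1, which guides DNA methylation to newly copied DNA, had 87.8, 192, 145 and 282 normalised counts in WT control and 64.1, 146 and 50.9 in KO control. With ezetimibe Uhrf1 had 88.7, 223, 87.7 and 162 in WT and 61.0, 77.2, 77.1 and 44.7 in KO. The ezetimibe groups were separate (−1.02 ± 0.39, SE, limma adjusted p = 0.255) and those without it overlapped (−1.04 ± 0.421, SE, limma adjusted p = 0.258). Chaf1b, a subunit of the histone chaperone CAF-1, had 14.3, 38.1, 36.1 and 69.3 in WT control and 17.0, 37.1 and 14.1 in KO control. With ezetimibe Chaf1b had 20.1, 48.8, 25.5 and 34.4 in WT and 19.3, 21.4, 21.0 and 10.7 in KO. Both pairs of groups overlapped (−0.70 ± 0.462 and −0.77 ± 0.428, SE). Chaf1a, its partner, was at 52.5 to 89.9 in WT control and 31.7 to 44.3 in KO control without overlap (−0.79 ± 0.347, SE, limma adjusted p = 0.301), but 52.5% of its exon bases lie under Ubxn6 on the opposite strand.

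**Figure D2:**
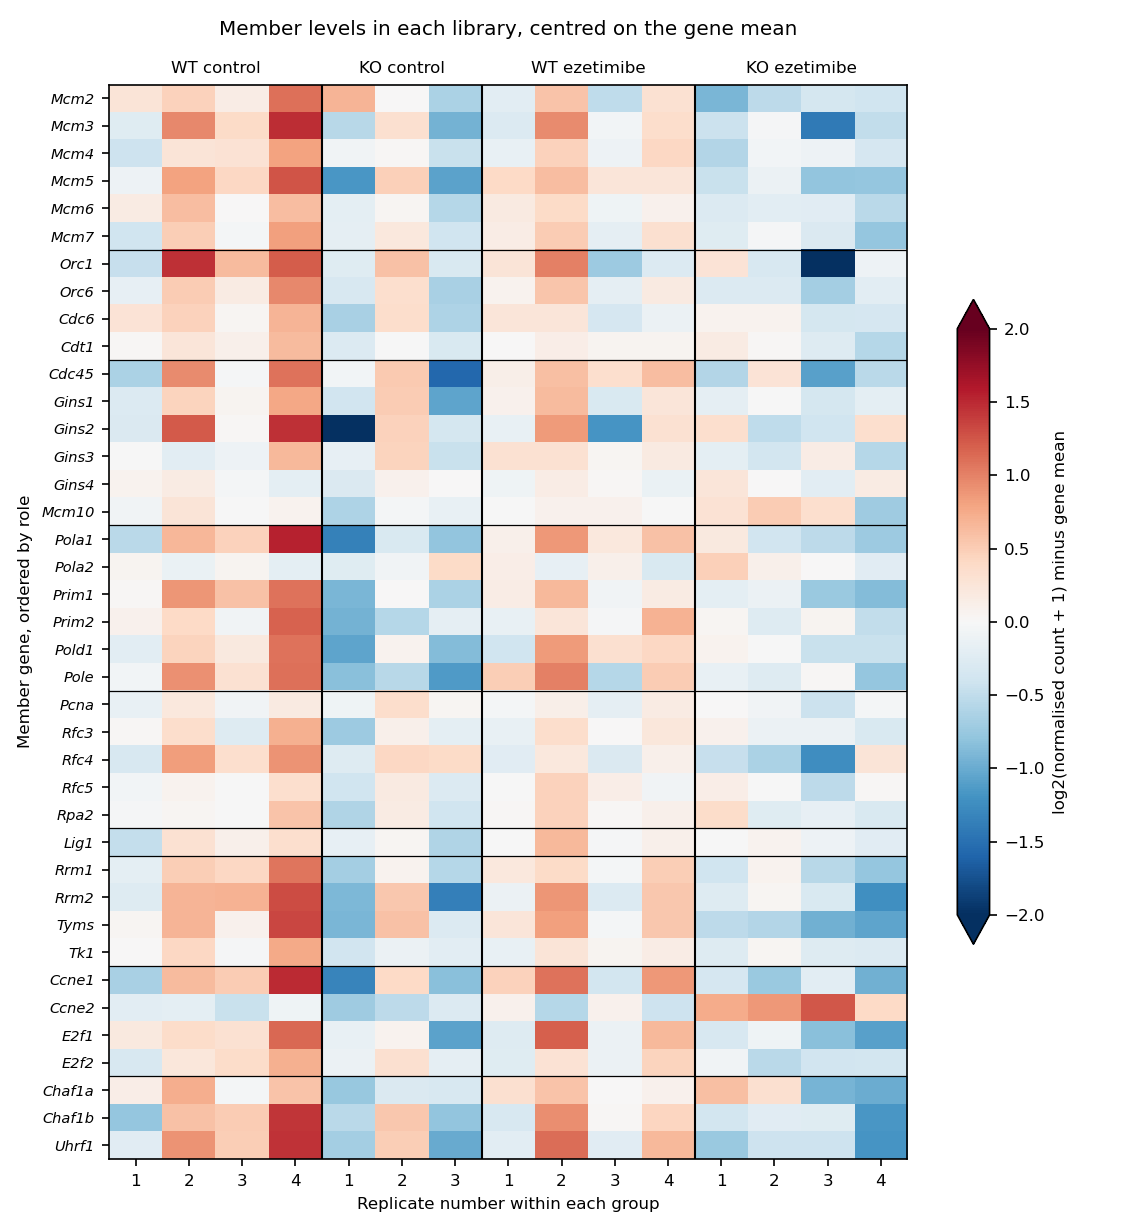
Each row is 1 of the 39 tested members, ordered by role, and each column a library; colour is log2(value + 1) minus the gene's mean over all libraries, red above and blue below. WT control replicate 4 is the highest of its group for 32 members and KO control replicate 2 for 35, and the Ccne2 row is above its mean in all 4 KO ezetimibe columns, where most other rows are below theirs and a few, such as Mcm10, Pola2 and Gins4, are above in some columns.

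G1/S regulators held the 1 member that passed limma in any comparison, Ccne2 (mm10 chromosome 4, 11191351 to 11204779), which encodes cyclin E2, a partner of the kinase that starts S phase. Ccne2 had 159, 162, 135 and 173 normalised counts in WT control and 113, 128 and 153 in KO control. With ezetimibe Ccne2 had 195, 124, 197 and 138 in WT and 309, 339, 439 and 245 in KO. Every KO ezetimibe library lay above every library of the other 3 groups, which overlapped one another. In KO, Ccne2 rose with ezetimibe by 1.32 ± 0.201 (log2, SE, limma adjusted p = 0.0135), higher in 4 of 4 libraries. It was the 1 member called there, against 0.727% of all genes called and 0.434% called higher. In WT the difference between diets was 0.03 ± 0.186 (SE, limma adjusted p = 0.999). KO against WT gave −0.26 ± 0.201 (SE, limma adjusted p = 0.586) without ezetimibe and 1.02 ± 0.186 with it (limma adjusted p = 0.171). That last difference passed DESeq2 (adjusted p = 0.000638), and the authors' deposited table lists it at 1.03 (adjusted p = 0.000705). The KO effect differed between diets by 1.28 ± 0.274 (SE), which did not pass limma (adjusted p = 0.681, although 3 of 14299 genes had a smaller p) and passed DESeq2 (1.29, adjusted p = 0.0354, with 0.035% of all genes called). These comparisons share the KO ezetimibe libraries and are not independent of each other.

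The limma call of Ccne2 in KO rests on few control libraries. It was 1.21 (limma adjusted p = 0.106) without KO control replicate 1, 1.31 (adjusted p = 0.0618) without KO control replicate 2 and 1.32 (adjusted p = 0.055) in a fit of the KO libraries alone, so the call ended while the value stayed between 1.17 and 1.45 over all libraries left out. Of the exon bases of Ccne2, 17.4% (609 bases) are shared with Ints8 on the opposite strand. Ints8, a subunit of the Integrator complex, had 448 ± 11.4 (SD, n = 3) normalised counts in KO control and 461 ± 69.2 (SD, n = 4) in KO ezetimibe, a difference of 0.03 ± 0.152 (log2, SE) that did not pass limma (adjusted p = 0.935).

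Ccne1, which encodes the other cyclin E, had negative estimates in KO on both diets. It had 16.2, 40.9, 37.1 and 74.4 normalised counts in WT control and 9.74, 34.4 and 14.1 in KO control. With ezetimibe Ccne1 had 35.9, 56.3, 19.8 and 48.3 in WT and 20.3, 15.0, 22.2 and 12.8 in KO. The groups overlapped on both diets, with log2 fold changes in KO of −1.08 ± 0.483 and −1.08 ± 0.447 (SE, limma adjusted p = 0.311 and 0.278). Within each library Ccne2 had 15.2 to 22.6 times the normalised count of Ccne1 in KO ezetimibe and 2.20 to 11.6 times in the other 11 libraries, which is a ratio of counts and not of molecules, since lengths differ. E2f1, an E2F activator, was at 24.8 to 48.9 in WT control and 9.75 to 22.6 in KO control without overlap (−0.88 ± 0.396, SE, limma adjusted p = 0.314), and at −0.95 ± 0.367 (SE) with ezetimibe. E2f2, another activator, had 167, 245, 272 and 343 in WT control and 193, 262 and 184 in KO control. With ezetimibe E2f2 had 177, 256, 192 and 286 in WT and 199, 144, 160.0 and 162 in KO. Its groups overlapped on both diets (−0.24 ± 0.224 and −0.44 ± 0.207, SE).

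**Figure D3:**
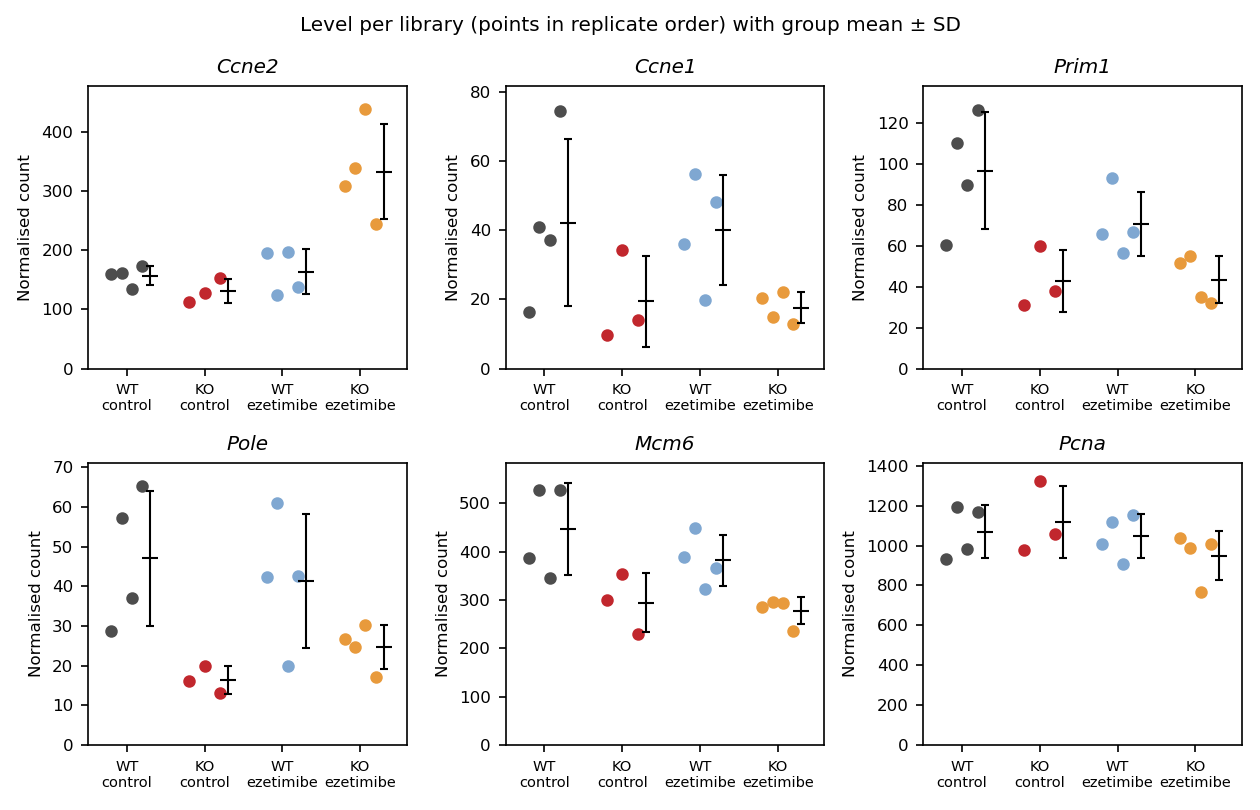
Normalised counts (vertical axes from 0) of Ccne2, Ccne1, Prim1, Pole, Mcm6 and Pcna in each library of the 4 groups, with the group mean and SD beside the points (n = 4, 3, 4 and 4). Ccne2 is at 245 to 439 in KO ezetimibe and at most 197 elsewhere, Prim1 in KO lies below WT on each diet, and Pcna overlaps in all groups.

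Ezetimibe itself was compared with the control diet within each genotype. In WT, 32 of 39 members had a negative log2 fold change, with a median of −0.14 against −0.01 over all genes, and 0 passed limma, as 0.217% of all genes did (DESeq2 and edgeR also called 0 members). None had an unadjusted p under 0.05, as 5.08% of all genes had. No member's groups were separate in WT, against 1.21% of all genes wholly below and 2.26% wholly above. The value turned on WT control replicate 4, without which the median was 0.00 and 21 of 39 members were positive. In KO, 22 of 39 members were positive, with a median of 0.03 against 0.01 over all genes; over the other settings and the libraries left out that median ran from −0.11 to 0.21. Of all genes, 22.9% had an unadjusted p under 0.05 there, and of the members Ccne2 alone. It was also the 1 member wholly above (8.64% of all genes), and none lay wholly below (9.38%). The 6 polymerase and primase genes were all positive in KO, from 0.03 for Prim1 to 0.56 for Pole, and the smallest limma adjusted p among them was 0.362, for Pole.

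Levels per exon length were compared in WT control. Pcna was the most abundant member at 446 ± 54.7 normalised counts per kilobase (SD, n = 4), followed by Mcm6 at 95.7 ± 20.3 and Gins4 at 94.7 ± 10.0, which do not differ beyond their spread. The polymerase subunits Pola1 (6.09 ± 3.50) and Pole (4.22 ± 1.53), Orc1 (3.90 ± 2.03) and Fen1 (2.51 ± 1.52) were lowest, in that order and within each other's spread. Exon lengths are from GENCODE M21 and count all annotated exons, so a gene with long unused exons is understated. For Fen1, 84.2% of these bases are shared with Gm10143 and Tmem258 on the opposite strand. Gm10143 had at most 5.57 normalised counts in any library. How reads in such shared bases were counted is unknown, so the level of Fen1 cannot be read from its value here.

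A list of 86 other genes of replication and G1/S gave the wider pathway. None passed limma in any of the 5 comparisons. The authors' deposited table lists 6 of them as lower in KO on the control diet: Top2a (adjusted p = 0.00175), Clspn (0.0119), Topbp1 (0.0143), Dnmt1 (0.021), E2f8 (0.0259) and Dbf4 (0.0405). It lists none with ezetimibe. By limma, 65 of 86 were negative in KO on the control diet, with a median of −0.30. At an unadjusted limma p under 0.05, 25 were lower and 1 higher, against 7.86% and 6.87% of all genes. With ezetimibe 68 of 86 were negative (median −0.30). There 18 were lower and 3 higher at the same threshold, against 8.3% and 8.15% of all genes. Top2a, the topoisomerase of replicating chromosomes, was lowest on the control diet. It was at 371, 686, 402 and 1042 normalised counts in WT and 158, 335 and 175 in KO control, without overlap (−1.44 ± 0.323, SE, limma adjusted p = 0.0636). Clspn, a checkpoint mediator at the fork, was at −1.41 ± 0.334 (SE, limma adjusted p = 0.0746), Topbp1, an origin firing factor, at −0.60 ± 0.156 (SE, limma adjusted p = 0.0901) and E2f8, an E2F repressor, at −1.15 ± 0.317 (SE, limma adjusted p = 0.107). With ezetimibe the same genes were at −0.74, −0.34, −0.25 and −0.87.

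Lists of markers were set beside the members, since the tissue holds many cell types. Of 20 mitosis genes, 5 passed limma as lower in KO control (Mki67, Bub1, Aspm, Knl1 and Anln), 15 have an adjusted p under 0.05 there in the authors' deposited table (all negative), 20 were negative and the median was −1.32, where the members' was −0.60. Knl1, a kinetochore protein, had 50.6, 79.9, 55.6 and 109 normalised counts in WT control and 16.2, 26.2 and 29.2 in KO control, without overlap (−1.56 ± 0.281, SE, limma adjusted p = 0.0424). Mki67, the proliferation antigen, had 483, 924, 546 and 1177 normalised counts in WT control and 167, 341 and 304 in KO control, without overlap (−1.50 ± 0.288, SE, limma adjusted p = 0.047). With ezetimibe Knl1 was at −0.70 and Mki67 at −0.66 in KO (limma adjusted p = 0.248 and 0.27). The authors' deposited table for ezetimibe lists 0 of the 20 mitosis genes. The mitosis list summed to 1830 to 4577 normalised counts in WT control, 823 to 1589 in KO control, 1908 to 2836 in WT ezetimibe and 1318 to 1899 in KO ezetimibe. Intestinal stem cell markers (12 genes, 0 called by limma or listed by the authors, all negative on the control diet, median −0.61) summed to 2500 to 5461, 1571 to 2836, 2008 to 3841 and 1720 to 2925 in the same order of groups. Olfm4, a marker of crypt base columnar cells, was at 769.6, 1928, 979 and 2359 in WT control and 257, 944 and 336 in KO control (−1.65 ± 0.499, SE, limma adjusted p = 0.135); KO replicate 2 alone reached the WT range. With ezetimibe Olfm4 was at −0.88 ± 0.462 and Axin2, another stem cell marker, at 0.03 ± 0.171 (SE). Paneth cell markers (9 genes, 0 called by limma, all negative on both diets, medians −1.67 and −0.64) summed to 20599 to 66938, 11508 to 18774, 10236 to 39494 and 9476 to 15584. Of the Paneth markers, the authors' deposited table lists 5 as lower in KO on the control diet (Mmp7, Ang4, Lyz1, Defa22 and Defa17, adjusted p = 0.0186 to 0.0245). No gene of these 3 lists was at 0 in any library. Their part in the members' values was not tested.

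Lymphocytes also divide, and their markers varied between libraries. T and NK cell markers (12 genes, 0 called by limma; 4 listed as lower on the control diet and 1 with ezetimibe in the authors' deposited tables) were all negative in KO on both diets (medians −0.61 and −0.53) and summed to 4682 to 7773 in WT control, 3606 to 4826 in KO control, 6688 to 9171 in WT ezetimibe and 4952 to 6806 in KO ezetimibe. B and plasma cell markers (9 genes, 0 called by limma or listed by the authors, medians −0.57 and −0.84; the list holds Xbp1 and Sdc1, which epithelium also expresses) summed to 6374 to 12249, 7563 to 10658, 5606 to 7856 and 5374 to 8339. Pax5, a B cell transcription factor, was at 0 in KO control replicate 1 and KO ezetimibe replicate 4. Germinal centre B cell markers (8 genes, of which 6 tested and 0 called by limma or listed by the authors, medians −0.47 and −0.38) summed to 589 to 651, 622 to 722, 651 to 767 and 666 to 1047. Up to 3 of these genes were at 0 in a KO control library and up to 2 in a KO ezetimibe library. They included Mef2b and Gcsam in KO control replicate 3 and Mef2b in KO ezetimibe replicate 3. Within this germinal centre list the sums did not follow the medians, and Fas weighed heavily on the sums. Fas had 226 ± 14.5 (SD, n = 4) normalised counts in WT control and 309 ± 47.0 (SD, n = 3) in KO control. Its groups did not overlap (0.44 ± 0.161, SE, limma adjusted p = 0.207), while S1pr2 was at −0.93 ± 0.478 (SE, limma adjusted p = 0.387). Mature enterocyte markers (14 genes, 0 called by limma; Alpi listed as higher with ezetimibe in the authors' deposited table, 0.62, adjusted p = 0.0474) were positive in KO for 8 genes on the control diet and for 14 with ezetimibe (medians 0.03 and 0.41). The part of these cells in the members' values was not tested.

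**Figure D4:**
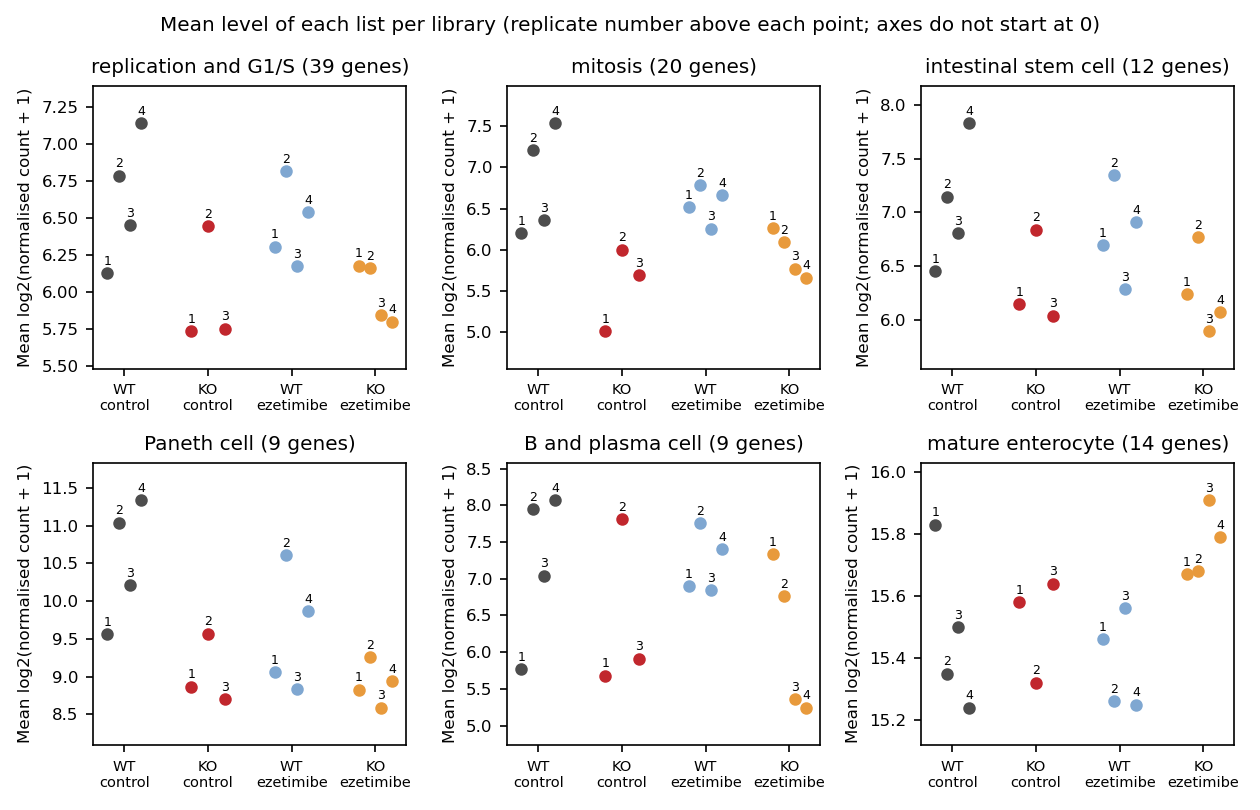
Mean log2(value + 1) of the members and of 5 marker lists in each library (vertical axes do not start at 0), with replicate numbers above the points. WT control replicate 4 and KO control replicate 2 are the highest of their groups in the member, stem cell, Paneth cell and B cell panels and the lowest in the mature enterocyte panel.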

How the data were processed

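Distal jejunum RNA was extracted with TRIzol and made into NEBNext Ultra II libraries, per the labels' protocols. FastQC, STAR 2.6.0c, mm10 and DESeq2 are named per the submitters' processing notes. The read counter, its annotation and its use of strand have no statement in the sources used here. The deposited signal is a table of DESeq2-normalised counts, per the file headers. A further pair of tables, one for KO against WT on each diet, lists genes at an adjusted p-value under 0.05, with the log2 fold change, the linear fold change (a ratio), the Wald score and the mean signal that the authors computed, per the file headers.

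Low values stepped by whole reads, so the reads behind every value were recovered (100.0% whole within 0.01 read) and gave the depth of 13855034 to 19307079. They entered edgeR 4.0.16 and DESeq2 1.42.0 as alternatives, because the deposited values are not counts. The test was limma 3.58.1 in R 4.3.3 on log2(value + 1) with a mean-variance trend, over all 15 libraries and 4 groups, with 5 contrasts. Genes needed a value of 10 in 3 libraries (14299 tested), and a Benjamini-Hochberg adjusted p under 0.05 over all of them was a call. Fold changes on this scale understate the change of low genes. On simulated reads of the control-diet genotype comparison (14299 genes), 25.4%, 62.7% and 84.8% of genes changed 1.5-, 2- and 4-fold were called, with 4 false calls. Each gene was drawn on its own, without differences between libraries that many genes share. The members vary together and spread more (median SD 0.403 against 0.258 over all genes), so these shares are not those for the members.

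Values per library are given for members called by limma or listed by the authors, and in each of the 9 roles for the members with the smallest and the largest p between genotypes on the control diet. In the other lists at most 2 genes with the smallest p are named, besides genes at 0, called or listed by the authors; some marker values are not reported here. The members and all gene lists were chosen with earlier results of these data known. Exons, positions and shared bases are from GENCODE M21, which matched 26825 of 26844 identifiers (99.93%). Promoter windows are from RefSeq. Pairing by replicate number needed every same-number correlation of deviations over 0.1, which 12 of 21 reached, so no pairing was used. Alternatives were the pseudocount, the filter, the scaling, the set of libraries fitted, a replicate block, other tools, each library left out, and a pair of libraries left out that was chosen after seeing the data. Intervals and limits for a count of 0 cover counting error only. Figures were drawn with matplotlib 3.10.9.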

Additional observations from a re-analysis of the deposited data

Results flagged for a closer look

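Of 120 groups of 4 libraries examined, 6 held a member in a library far from the others by Dixon's test. A rate of 1 in 20 would hold by chance only for independent groups. The members were often high or low in the same libraries, so that rate is no benchmark here and chance was not tested. Among WT control libraries, replicate 4 stood high for Rpa2 at 184 normalised counts (the others 122 to 128) and for E2f1 at 48.9 (the others 24.8 to 28.2). In WT ezetimibe, replicate 2 stood high for Rpa2 at 171 (the others 125.5 to 132.8) and for Lig1 at 275 (the others 172 to 187). Tk1 stood high in KO ezetimibe replicate 2 at 131 (the others 105.5 to 106.2). Orc6 stood low in KO ezetimibe replicate 3 at 50.2 (the others 66.4 to 69.2). The 4 high values in WT came from the WT library of each diet in which most members were highest. Their cause was not tested.

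For Ccne2, which encodes cyclin E2, the KO effect differed between the diets by 1.29 on the log2 scale with DESeq2 (adjusted p = 0.0354). Limma gave 1.28 for the same difference, with an adjusted p of 0.681.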

How the results depend on the processing

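The median over the members stayed negative for KO against WT in every setting and with each library left out, from −0.88 to −0.38 on the control diet and from −0.53 to −0.36 with ezetimibe. It crossed 0 for ezetimibe within WT (−0.30 to 0.003), within KO (−0.11 to 0.21) and for the interaction (−0.02 to 0.35). The number of members called was less stable. Between genotypes on the control diet it was 0 by limma, 5 by DESeq2 and 0 to 2 with a library left out. With ezetimibe DESeq2 called 1, and for the interaction it called 1. For ezetimibe within KO it was 1 by limma, 0 with only the compared libraries fitted, and 0 to 2 with a library left out: 0 without KO control replicate 1 or 2, and 2 without KO ezetimibe replicate 4, where Mcm10 joined Ccne2. In that last fit 456 of all 14299 genes were called.

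Replicate numbers were not taken as pairs: same-numbered deviations correlated at a median of 0.125 (−0.24 to 0.33; 17 of 21 above 0, 12 above 0.1) and others at −0.0254, and 8 of 15 libraries correlated best with their own number. The replicate block gave 1 member called on the control diet (Prim1, adjusted p = 0.0366) and raised the genes called to 231 there, 6 between genotypes with ezetimibe, 54 for ezetimibe in WT and 1915 in KO, with 0 for the interaction. Under the block Pola2 was at −0.00492 on the control diet.

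Small values changed sign. Gins2 with ezetimibe was 0.15 under quantile normalization, 0.10 with WT control replicate 4 and KO ezetimibe replicate 3 both left out (chosen after seeing the data) and −0.39 to 0.29 with 1 library left out. Gins4 was 0.0221 on the control diet under quantile normalization, and ran from −0.15 to 0.039 there and from −0.00403 to 0.14 with ezetimibe when a library was left out. The same ranges were −0.11 to 0.21 for Pola2 and −0.0671 to 0.15 for Pcna on the control diet, and −0.0659 to 0.16 for Ccne2 between diets in WT. The cause was not tested.

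Genes called in all moved more. On the control diet there were 53 by limma (21 higher, 32 lower; 9 and 29 under TMM scaling), 17 with a pseudocount of 5, 12 with no filter and by edgeR, 10 by voom, 5 under quantile normalization, 3 with only the compared libraries, 452 by DESeq2 and 3 to 126 with a library left out. With ezetimibe there was 1, against 2 under quantile normalization, 3 with only the compared libraries and 78 by DESeq2. For ezetimibe there were 31 in WT, against 93 by DESeq2 and 17 to 34 with a library left out. In KO there were 104, against 330 with a mean of at least 50, 54 with no filter, 41 by voom, 16 with only the compared libraries, 1155 by DESeq2 and 5 to 456 with a library left out. The interaction gave 0, and 5 by DESeq2. The members with the lowest counts were low in every library: Orc1 had at most 20.9 normalised counts and Fen1, with most exon bases shared, at most 10.2.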

Other observations

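Samhd1, which breaks down the deoxynucleotides that replication uses, had the largest positive log2 difference with ezetimibe in both genotypes among 86 other genes of replication and G1/S. It was 0.58 ± 0.183 in WT (SE, limma adjusted p = 0.508) and 0.71 ± 0.197 in KO (limma adjusted p = 0.0666), and neither passed the test.

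None of the 4 remaining lists had a negative median in KO on both diets. Goblet cell markers (8 genes) had medians of −0.01 on the control diet and 0.05 with ezetimibe. Myeloid markers (9 tested of 10) had medians of 0.24 and −0.63, and in KO C1qc, a complement gene of macrophages, fell with ezetimibe (−1.77 ± 0.376, log2, SE, limma adjusted p = 0.0479). Smooth muscle and stroma markers (9 genes) had medians of −0.0002 and 0.28. Circadian clock genes (10 genes) had medians of −0.31 and 0.42.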
